A study of Mus musculus with 24 samples.

Results

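Ts65Dn mice carry an extra minichromosome that joins a part of Mmu16 to the centromeric part of Mmu17, so that the genes on it are present in 3 copies. Among these triplicated genes, 5 act on RNA processing or ribosome assembly and are described here: Son, Scaf4, Scaf8, Paxbp1 and Urb1. They were chosen by name, as the rows of the count matrix whose Ensembl identifiers carry these symbols, which gave 5 genes of 55385 in the matrix and of 147 identifiers matched to the triplicated segments. Triplicated genes are here those of a list of 94 Mmu16 and 51 Mmu17 symbols, not every gene of the segments. Gm49797 and 4930404I05Rik, for example, are not on it. The list also reaches past Pde10a, where the paper ends the Mmu17 part, to 6530411M01Rik. RNA-Seq was done on the hippocampus (HIP) and the entorhinal cortex (EC) of 12 male mice aged 5 to 6 months, 6 Ts65Dn mice and 6 wild-type (wt) littermates on the same mixed B6C3B background, which gave 24 libraries. The Ts65Dn mice are trisomic for both parts of the minichromosome, so an effect of Mmu16 genes and one of Mmu17 genes cannot be told apart.

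SON is a large protein of nuclear speckles, the sites where splicing factors gather, and acts as a splicing cofactor for transcripts with weak splice sites. SCAF4 and SCAF8 are paralogues that bind the C-terminal domain of RNA polymerase II and keep transcripts from ending too early at upstream polyadenylation sites. PAXBP1 binds PAX3 and PAX7 and links them to a histone H3K4 methyltransferase, and its relatives belong to the machinery that takes the spliceosome apart. URB1 is a nucleolar protein needed to build the large ribosomal subunit. Loss of a copy of SON or of SCAF4 causes neurodevelopmental disorders in humans.

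On GRCm38, Son lies on the plus strand at chr16:91647506-91679221, Scaf4 on the minus strand at chr16:90225680-90284503, Paxbp1 on the minus strand at chr16:91014037-91044543 and Urb1 on the minus strand at chr16:90751527-90810413. Scaf8 lies on the plus strand at chr17:3114972-3198859, near the centromeric end of Mmu17. All 5 are protein coding, with 14 (Son), 20 (Scaf4), 22 (Scaf8), 19 (Paxbp1) and 39 (Urb1) separate exon blocks in GENCODE. Son starts next to Gart, a purine synthesis enzyme gene on the opposite strand, with 553 bases between the genes, and its far end overlaps Donson, a replication fork gene, by 2414 bases, of which 103 are exonic in both. Scaf4 overlaps the end of Sod1, the cytosolic superoxide dismutase gene, by 650 bases, of which 0 are exonic in both. Paxbp1 overlaps an antisense transcript, 4930404I05Rik, over 1142 exonic bases, and Scaf8 shares 114 exonic bases with the non-coding gene Gm49797 on its own strand. Urb1 overlaps no gene. The strand setting of the counting is not given in the sources used here, so reads in these shared exonic bases cannot be assigned with certainty, and 4930404I05Rik itself held 6 to 36 counts a library.

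The sequences next to the starts of the members are shown because Son and Gart share one short interval and because Scaf4 and Scaf8 are paralogues with starts on different chromosomes. They are the bases upstream of each RefSeq start (GRCm38.p6), read 5′ to 3′ towards the gene, kept only where GENCODE has no exon. Capitals mark a GC box (GGGCGG) or a CCAAT box (CCAAT), on either strand. Those of Gart (chr16:91646973-91647222, minus strand, part of the interval shared with Son), Scaf4 (chr16:90284504-90284753, minus strand), Scaf8 (chr17:3114796-3114971, plus strand) and Urb1 (chr16:90810414-90810663, minus strand) read:
Gart: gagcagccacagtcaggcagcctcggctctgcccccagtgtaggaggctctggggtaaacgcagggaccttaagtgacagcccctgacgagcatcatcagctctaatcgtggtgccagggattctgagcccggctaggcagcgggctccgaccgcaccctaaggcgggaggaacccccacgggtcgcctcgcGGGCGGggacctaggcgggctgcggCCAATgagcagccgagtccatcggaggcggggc
Scaf4: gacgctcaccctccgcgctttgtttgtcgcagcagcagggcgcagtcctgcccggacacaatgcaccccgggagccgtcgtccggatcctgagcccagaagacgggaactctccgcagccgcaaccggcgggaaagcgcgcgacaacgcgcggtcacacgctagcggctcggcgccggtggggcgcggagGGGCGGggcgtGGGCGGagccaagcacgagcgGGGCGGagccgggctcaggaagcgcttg
Scaf8: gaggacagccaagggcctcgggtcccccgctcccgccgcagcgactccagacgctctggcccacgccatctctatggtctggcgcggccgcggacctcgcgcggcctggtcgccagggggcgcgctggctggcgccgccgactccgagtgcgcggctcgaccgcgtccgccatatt
Urb1: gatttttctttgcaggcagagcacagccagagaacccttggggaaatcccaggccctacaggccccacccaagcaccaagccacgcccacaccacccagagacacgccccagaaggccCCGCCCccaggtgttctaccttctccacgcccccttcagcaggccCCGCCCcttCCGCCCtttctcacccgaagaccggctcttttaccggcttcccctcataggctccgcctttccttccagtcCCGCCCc

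The RefSeq window upstream of Son lies within an exon that GENCODE gives to Son, so it is not printed. The exon-free piece upstream of Paxbp1 is only 86 bases long (60.5% G and C) and is not printed either, and the letters of the motifs named next are not in it. A GC box was found 1 time in the Gart piece, 3 times in the Scaf4 piece and 4 times in the Urb1 piece, and 32.7% of all 32851 mouse windows of 250 bases hold at least 1. A CCAAT box was found 1 time, in the Gart piece, and 33.8% of all windows hold one. The TATA box (TATAAA, in 12.4% of all windows) and an ETS core (CCGGAAG, in 6.91%) were searched on both strands too, and these letters are not in the 4 pieces. The pieces were rich in G and C, at 68% (Gart), 72.8% (Scaf4), 75.6% (Scaf8, 176 bases) and 64.4% (Urb1), against a median of 52.4% over all windows.

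The triplicated genes gave a check of the genotype labels that bears on every result. Library totals ranged from 23128589 to 40476492 counts. Over the 79 Mmu16 genes tested in the HIP, 5 Ts65Dn libraries had medians of 1.44 to 1.54 times the wt mean, and the library labelled Ts65Dn replicate 3 had one of 1.01, next to the wt range of 0.979 to 1.01. In the EC the same 5 mice gave 1.46 to 1.49 and the library labelled Ts65Dn replicate 3 gave 0.984. The Mmu17 genes behaved likewise, at 0.974 (HIP) and 0.957 (EC) in that library. Its label was kept, and the folds, calls, ratios and region differences of the members are given with it and without it. Marker genes fitted the labelled regions, 5 of 6 hippocampal markers being higher in the HIP and 6 of 6 neocortical markers higher in the EC, while the hippocampal marker Wfs1 was lower in the HIP (log2 difference −0.35). In whole tissue, fewer cells of a type and less RNA per cell cannot be told apart.

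Son was by far the most abundant of the 5 genes and Urb1 the least. Per kilobase of exon, on CPM (counts scaled to the library size) over all 24 libraries, the wt HIP held 21.8 ± 0.73 CPM per kb of Son (SD, n = 6), 10.3 ± 0.42 of Scaf8, 4.26 ± 0.30 of Scaf4, 3.599 ± 0.199 of Paxbp1 and 1.49 ± 0.072 of Urb1. The wt EC held 19.0 ± 1.0 CPM per kb of Son, 9.60 ± 0.63 of Scaf8, 3.704 ± 0.244 of Scaf4, 2.03 ± 0.36 of Paxbp1 and 1.54 ± 0.087 of Urb1. The order of the means was the same in all 4 groups. The library values of Scaf4 and Paxbp1 overlapped in the HIP of both genotypes, and those of Paxbp1 and Urb1 in the Ts65Dn EC, so these neighbours in the order were not separated there. The raw counts behind these levels ran from 6717 to 14883 a library for Son, from 1335 to 3025 for Scaf8, from 488 to 1181 for Scaf4, from 298 to 728 for Urb1 and from 253 to 918 for Paxbp1.

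**Figure D1:**
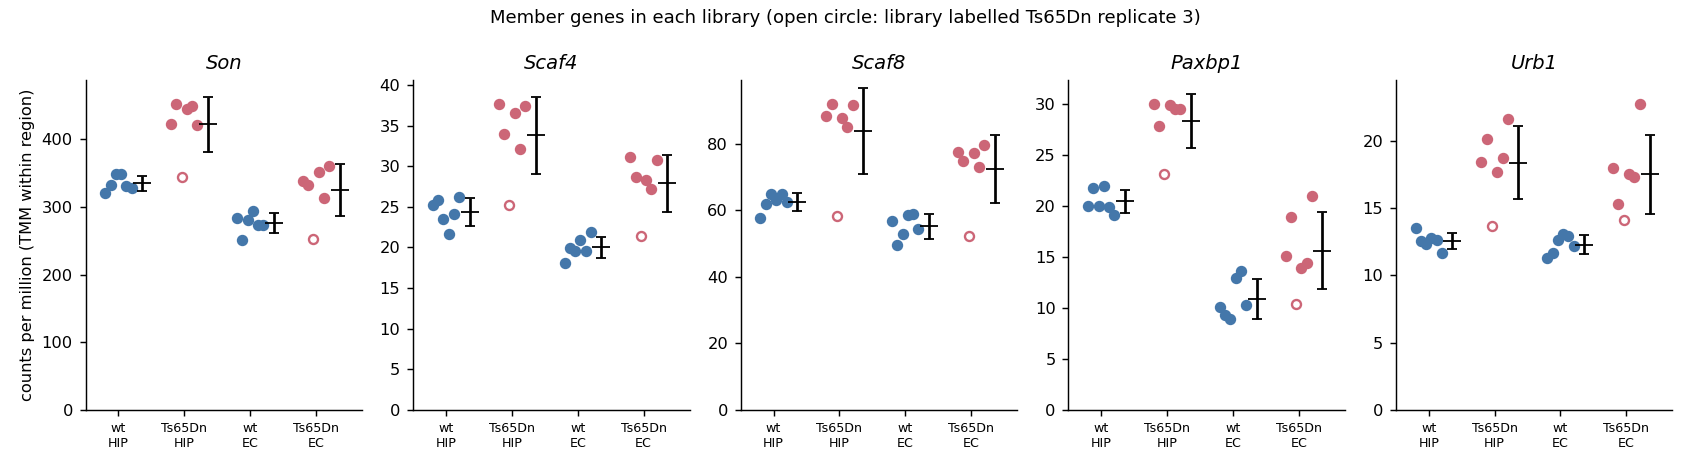
CPM, scaled within each region, of each member gene in each of the 24 libraries, with the mean and SD of each group in black. The open circle is the library labelled Ts65Dn replicate 3, which lies at or next to the wt libraries, while the other 5 Ts65Dn libraries lie above all 6 wt libraries for every member in both regions (beside 1.95% of all genes for HIP and 2.21% for EC libraries).

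The first question was whether the extra copy raised each transcript. In the HIP all 5 members were higher in Ts65Dn, by 1.26-fold (Son) to 1.46-fold (Urb1), and 5 of 5 passed edgeR's quasi-likelihood test at a Benjamini-Hochberg adjusted p under 0.05, where 0.542% of the 17355 genes tested were called higher. In the EC all 5 again had higher means, by 1.18-fold (Son) to 1.44-fold (Paxbp1), and 3 of 5 were called (Scaf4, Scaf8 and Urb1), where 1.15% of the 17049 genes tested were called higher. Without the library labelled Ts65Dn replicate 3, 5 of 5 were called in both regions, against 1.06% (HIP) and 1.42% (EC) of all genes. The other triplicated genes also have 3 copies. Over all libraries, the share of triplicated genes called higher was 42.7% of 117 tested for the HIP and 47% of 115 for the EC. Without the library labelled Ts65Dn replicate 3, 55 of these 79 Mmu16 genes and 17 of 38 Mmu17 genes were called higher in the HIP. For the EC, 57 of 77 and 18 of 38 were. The other 5 Ts65Dn libraries lay above every wt library for 5 of 5 members in each region, as they did for 1.95% (HIP) and 2.21% (EC) of all genes.

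Son, the speckle scaffold, stood at 320.4 to 348.7 CPM (median 331.9) across the 6 wt HIP libraries, while the 6 Ts65Dn libraries held 344.1 to 451.9 (median 433.9). The library labelled Ts65Dn replicate 3 gave the lowest Ts65Dn value, inside the wt range, and the other 5 lay above every wt library, from 421.5 CPM upward. The fitted fold was 1.26 (95% interval 1.15 to 1.38), with an adjusted p of 0.0224 by edgeR, and it was 1.31 (1.24 to 1.38) without that library, with an adjusted p of 8.56e-05. The EC of wt mice held 250.7 to 294.2 CPM of Son (median 277.5), and that of Ts65Dn mice 252.5 to 361 (median 335.5). The library labelled Ts65Dn replicate 3 was again the lowest and lay inside the wt range, and the others started at 313.9 CPM. The fold in the EC was 1.18 (1.06 to 1.31), which did not pass (adjusted p 0.101 by edgeR), and without that library it was 1.23 (1.14 to 1.32), which did (0.00621).

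Scaf4, which lies 81910 bases from Tiam1 and overlaps Sod1, was at 21.6 to 26.2 CPM in wt HIP libraries (median 24.7), against 25.2 to 37.6 for Ts65Dn (median 35.2). Its EC values were 18.1 to 21.9 for wt (median 19.8), against 21.4 to 31.1 for Ts65Dn (median 28.4). In both regions only the library labelled Ts65Dn replicate 3 fell within the wt range. The fold was 1.39 in each region (HIP interval 1.21 to 1.58, EC interval 1.23 to 1.58), with adjusted p of 0.0274 and 0.0131 by edgeR, and it was 1.46 in each without that library.

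Scaf8, the paralogue on Mmu17, was at 57.6 to 64.9 CPM in wt HIP libraries (median 62.8), against 58.2 to 91.8 for Ts65Dn (median 88.04). For the EC the wt libraries gave 49.4 to 59.0 CPM (median 55.4), and Ts65Dn gave 52.2 to 79.7 (median 76.0). The library labelled Ts65Dn replicate 3 stood far below the other 5, which started at 85.1 (HIP) and 73.0 CPM (EC), and it lay among the wt libraries. The HIP fold was 1.34 (1.17 to 1.54) and the EC fold 1.31 (1.15 to 1.498), with adjusted p of 0.0434 and 0.0323 by edgeR. Without that library the folds were 1.42 and 1.39, with adjusted p of 1.26e-05 and 0.000193.

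Paxbp1 was at 19.2 to 22.0 CPM in wt HIP libraries (median 19.98), against 23.1 to 30.0 for Ts65Dn (median 29.5), so that all 6 Ts65Dn libraries lay above all 6 wt libraries, as 0.668% of all genes did in the HIP. The fold was 1.38 (1.25 to 1.53), with an adjusted p of 0.00731 by edgeR, the smallest of the 5 members. EC libraries held 8.94 to 13.6 CPM of Paxbp1 for wt (median 10.2), against 10.4 to 21.02 for Ts65Dn (median 14.8). It was the most variable member there, and besides the library labelled Ts65Dn replicate 3, which lay in the wt range, the next Ts65Dn library was at 13.9 CPM, barely above the highest wt library. The fold of 1.44 (1.14 to 1.82) did not pass (adjusted p 0.0877 by edgeR). It was 1.54 (1.25 to 1.89) without that library, with an adjusted p of 0.0302, a call that was lost in 5 of 11 fits in which a further mouse was left out.

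Urb1, the ribosome assembly gene, was at 11.6 to 13.5 CPM in wt HIP libraries (median 12.6), against 13.7 to 21.6 for Ts65Dn (median 18.6). Its EC values were 11.3 to 13.1 CPM for wt (median 12.4), against 14.2 to 22.7 for Ts65Dn (median 17.5). All 6 Ts65Dn libraries lay above all 6 wt libraries in both regions, as 0.668% (HIP) and 1.13% (EC) of all genes did, though the library labelled Ts65Dn replicate 3 was the lowest of the 6 in each. The HIP fold was 1.46 (1.28 to 1.68) and the EC fold 1.43 (1.23 to 1.65), with adjusted p of 0.0167 and 0.0182 by edgeR, and 1.54 and 1.48 without that library.

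How firmly a call held depended on the mouse left out. In the HIP, Paxbp1 and Urb1 were called without any 1 of the 12 mice. The call of Son was lost without Ts65Dn replicate 6 or wt replicate 2, 5 or 6 (adjusted p up to 0.0551), and that of Scaf4 without Ts65Dn replicate 1, 4 or 6 or wt replicate 2, 3, 4, 5 or 6 (up to 0.0682). The call of Scaf8 held only without the library labelled Ts65Dn replicate 3 and was lost in the other 11 cases (adjusted p up to 0.101). In the EC, Scaf4 was called without any 1 mouse, Urb1 lost its call without Ts65Dn replicate 1 (0.0531), and Scaf8 lost its call in 9 of 12 cases (up to 0.0833), its 3 calls being those without wt replicate 2, Ts65Dn replicate 6 and Ts65Dn replicate 3. Among the 11 libraries of a region that remain without Ts65Dn replicate 3, 9 of the 10 calls held whichever further mouse was left out, the exception being Paxbp1 in the EC.

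The next question was how each fold compares with 1.5, the value that 1 copy added to 2 gives when transcript level follows copy number. Son lay below it in both regions. The 95% interval of its fold ended at 1.38 (HIP) and 1.31 (EC), and edgeR's test against 1.5 gave an unadjusted p of 0.00108 and 0.000294 (adjusted over all genes 0.00166 and 0.000489). Without the library labelled Ts65Dn replicate 3 the intervals ended at 1.38 and 1.32, with p of 0.000188 and 5.43e-05, and Son stayed below 1.5 whichever single mouse was left out. The intervals of Scaf4, Paxbp1 and Urb1 held 1.5 in both regions, and so did that of Scaf8 in the HIP. Scaf8 in the EC lay just below, its interval ending at 1.498 (p 0.0476, adjusted over all genes 0.0558) and, without that library, at 1.499 (p 0.0491), and the interval held 1.5 in 7 of 12 fits without 1 mouse, those without Ts65Dn replicate 2 or 5 or wt replicate 1, 3, 4, 5 or 6. Of the triplicated genes tested, 17.1% (HIP) and 17.4% (EC) had an interval below 1.5, beside 1 of 5 and 2 of 5 members. These shares are from the fits over all libraries, and were not computed without the library labelled Ts65Dn replicate 3. Among all genes the share was 84.3% and 85.6%, since most genes have 2 copies in either genotype. The adjustment of the test against 1.5 ran over these genes too, so it changed p little. It is not an adjustment over the triplicated genes alone.

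**Figure D2:**
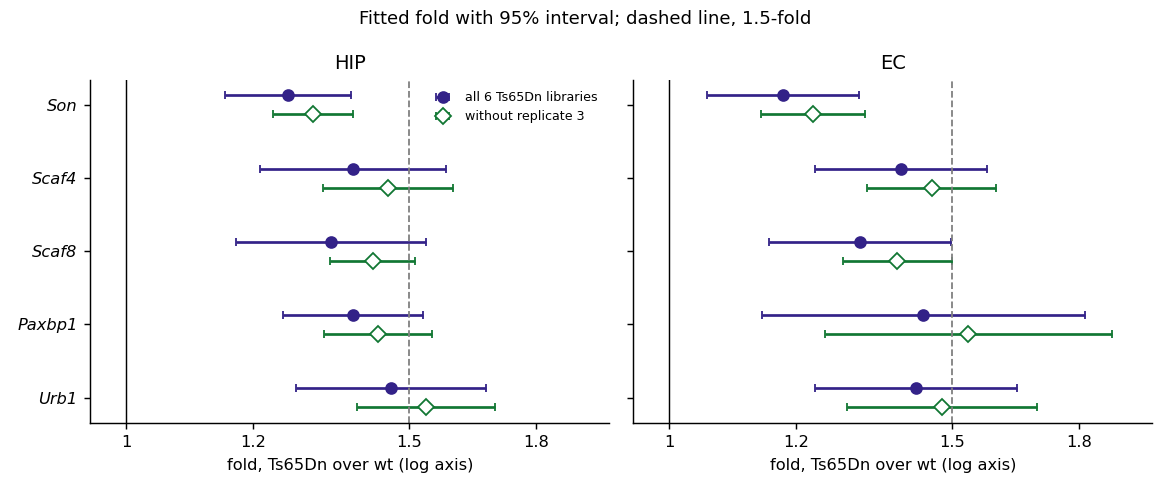
Fitted fold of Ts65Dn over wt for each member, with its 95% interval, from all 6 Ts65Dn libraries (filled circles) and without the library labelled Ts65Dn replicate 3 (open diamonds), on a log axis with a dashed line at 1.5. The intervals of Son end below 1.5 in both regions and in both fits, and those of Urb1 hold 1.5 throughout.

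The folds were then set against those of the other triplicated genes. The median fold of the Mmu16 genes tested was 1.42 in both regions, and that of the Mmu17 genes was 1.40 (HIP) and 1.41 (EC). Without the library labelled Ts65Dn replicate 3 the medians were 1.48 (Mmu16, both regions), 1.47 (Mmu17, HIP) and 1.52 (Mmu17, EC). Son was near the lower end of its segment, with 8 of 79 Mmu16 genes below it (HIP) and 4 of 77 (EC). Scaf8 had 17 (HIP) and 11 (EC) of 38 Mmu17 genes below it. Measured in each library against the mean log2 level of the other triplicated genes of its segment, Son differed between Ts65Dn and wt by −0.15 on the log2 scale in the HIP (two-sided exact permutation p = 0.026 over 924 splits) and by −0.25 in the EC (p = 0.00433 by the exact permutation). Adjusted over all 117 and 115 triplicated genes these were 0.38 and 0.166, so neither passed, and without the library labelled Ts65Dn replicate 3 the differences were −0.16 and −0.28 (adjusted exact permutation p 0.426 and 0.126). Against the median instead of the mean of the other triplicated genes, the difference of Son in the HIP was −0.07 (exact permutation p = 0.134) and that in the EC −0.24. Over all 12 libraries of a region, 0 triplicated genes passed in either region, while 12 and 16 of them (10.3% and 13.9%) had an unadjusted p under 0.05. The other 4 members, over all libraries, differed from their segments by −0.10 to 0.06 on the log2 scale, with unadjusted exact permutation p of 0.156 or more.

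**Figure D3:**
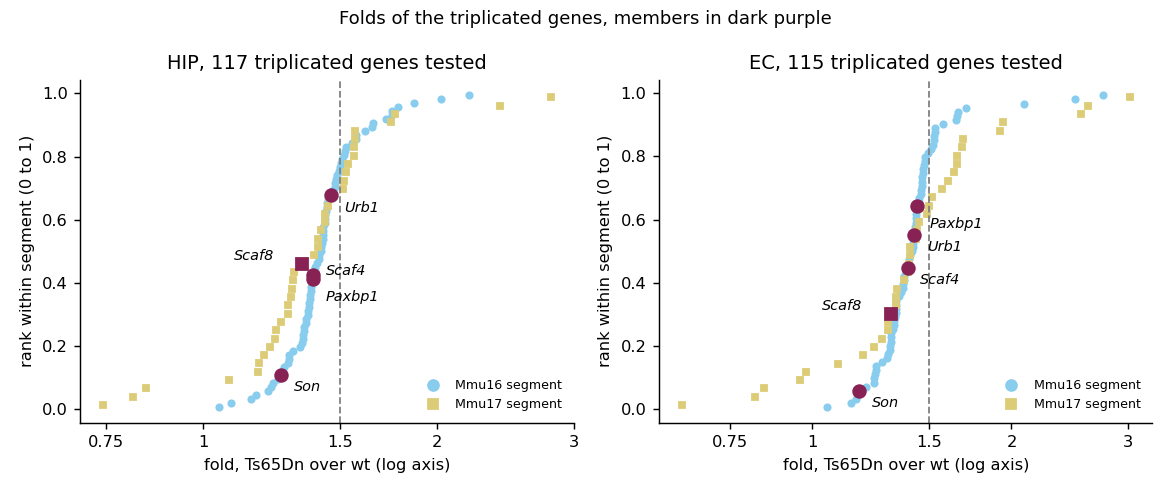
Fold of Ts65Dn over wt (log axis) of every listed triplicated gene tested, ranked within its segment, for the HIP and the EC, with the members in dark purple and a dashed line at 1.5. Son lies near the bottom of the Mmu16 genes in both regions, and the other 4 members lie further up.

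Ratios within a library compare neighbours free of library scaling. Ratios of a member to a coding gene that overlaps or adjoins it, and of Scaf4 to its paralogue Scaf8, gave 21 tests over both regions, which were adjusted together. Atp5o, on the other side of Son from Gart, gave no ratio, since the identifier taken for it held 0 counts in every library. Another identifier of Atp5o was expressed but was not used. Urb1 over Mrap was tested in the HIP only. Son was less abundant relative to Gart, its head-to-head neighbour, in the Ts65Dn EC, and in the HIP the difference passed only without the library labelled Ts65Dn replicate 3. In the HIP the ratio of Son to Gart was 12.0 ± 0.98 in wt (10.9 to 13.05, SD, n = 6) and 9.99 ± 0.99 in Ts65Dn (9.05 to 11.8, two-sided exact permutation p = 0.0108, adjusted over the 21 tests 0.0758, which did not pass). In the EC it was 9.36 ± 0.68 in wt (8.20 to 10.2) and 7.70 ± 0.54 in Ts65Dn (6.99 to 8.42, exact permutation p = 0.00433, adjusted 0.0455). The groups overlapped in each region. In the HIP the library labelled Ts65Dn replicate 3 was the highest of its group at 11.8, within the wt range, and the other 5 lay at 10.4 or lower, below every wt library, whereas in the EC it lay at 7.87, among the other 5. Without it the adjusted p was 0.0303 (HIP) and 0.0341 (EC). Gart itself was higher by 1.53-fold (HIP, 1.32 to 1.77) and 1.43-fold (EC, 1.27 to 1.62), with adjusted p of 0.0139 and 0.00803 by edgeR.

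Scaf4 was less abundant relative to Sod1, whose 3′ end meets its own, in the Ts65Dn HIP. The ratio of Scaf4 to Sod1 was 0.288 ± 0.022 in the wt HIP (SD, n = 6) and 0.241 ± 0.012 in the Ts65Dn HIP, with all 6 Ts65Dn libraries below all 6 wt libraries (exact permutation p = 0.00216, the smallest that 924 splits can give, adjusted over the 21 tests 0.0455). The library labelled Ts65Dn replicate 3 was the highest of the Ts65Dn values, at 0.256, against a lowest wt value of 0.259. In the EC the ratio was 0.200 ± 0.024 and 0.176 ± 0.018, which did not pass (exact permutation p = 0.0887, adjusted 0.305). Without that library the adjusted p was 0.0303 (HIP) and 0.335 (EC). Sod1 was 1.65-fold higher in the Ts65Dn HIP (1.45 to 1.89), with an adjusted p of 0.00205 by edgeR. Without that library its HIP fold was 1.75 (1.65 to 1.86), beside 1.46 (1.33 to 1.60) for Scaf4. Against the mean of the other triplicated Mmu16 genes in the HIP, Sod1 differed by 0.24 on the log2 scale (exact permutation p = 0.00649, adjusted 0.253). Scaf4 differed by −0.02 (exact permutation p = 0.851). Neither difference passed, and which of the genes accounts for the lower ratio was not tested. Without the library labelled Ts65Dn replicate 3 the ratio of Son to Donson in the EC passed as well (log2 difference −0.36, exact permutation p = 0.00433, adjusted 0.0303), where it was −0.25 with an adjusted p of 0.305 over all 6. The remaining ratios did not pass with or without that library.

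The paralogues Scaf4 and Scaf8, which lie on different segments, moved by about the same factor. The ratio of Scaf4 to Scaf8 in CPM was 0.392 ± 0.038 in the wt HIP and 0.405 ± 0.026 in the Ts65Dn HIP (exact permutation p = 0.452), and 0.365 ± 0.035 and 0.386 ± 0.017 in the EC (exact permutation p = 0.203). The difference on the log2 scale was 0.05 and 0.09, and the groups overlapped in both regions. A p above the threshold does not show that the ratio was the same.

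**Figure D4:**
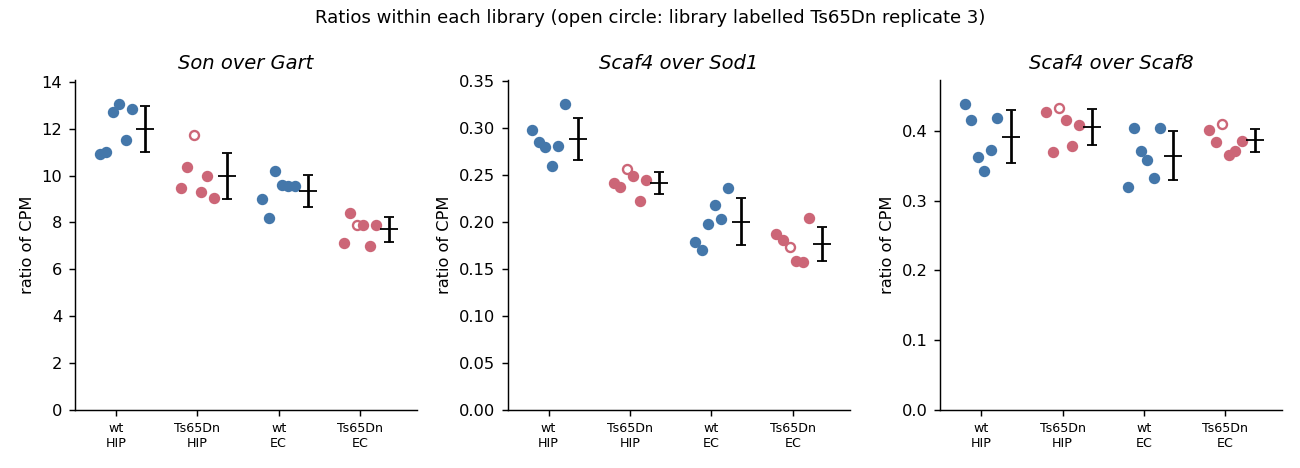
Ratio of CPM within each of the 24 libraries for Son over Gart, Scaf4 over Sod1 and Scaf4 over Scaf8, with the mean and SD of each group in black and the library labelled Ts65Dn replicate 3 as an open circle. Son over Gart is lower in the Ts65Dn EC and did not pass in the HIP over all 12 libraries, Scaf4 over Sod1 is lower in the Ts65Dn HIP, and Scaf4 over Scaf8 overlaps between genotypes.

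Both regions came from the same groups of mice, so the regions were compared within a mouse. HIP and EC libraries with the same genotype and replicate number were taken as the same mouse, which the labels do not state. Paxbp1 differed most. It was 1.79-fold higher in the HIP than in the EC in wt (95% interval 1.55 to 2.08, adjusted p 2.98e-06 by edgeR with a term for each mouse) and 1.73-fold in Ts65Dn (1.504 to 1.998, 4.7e-06), and it was higher in the HIP in 12 of 12 mice, with ratios from 1.32 to 2.21. Son was 1.15-fold higher in the HIP in wt (1.077 to 1.22, adjusted p 0.00091) and 1.23-fold in Ts65Dn (1.15 to 1.304, 2.66e-05), in 12 of 12 mice. Scaf4 was 1.15-fold and 1.14-fold higher (adjusted p 0.00305 and 0.00461 by edgeR), in 11 of 12 mice. Scaf8 was 1.07-fold higher in wt, which did not pass (adjusted p 0.0529), and 1.09-fold in Ts65Dn, which did (0.022 by edgeR), in 11 of 12 mice. Urb1 was higher in the HIP in 4 of 12 mice, with folds of 0.966 (0.875 to 1.07) in wt and 0.989 (0.899 to 1.09) in Ts65Dn that did not pass. Of all 18109 genes, 58.6% differed between the regions in wt (30.3% being higher in the HIP) and 56.5% in Ts65Dn (29.5%), beside 3 and 4 of 5 members, all higher in the HIP. Without the mouse labelled Ts65Dn replicate 3, Scaf8 passed in wt too (adjusted p 0.0456 by edgeR), and the other calls were as before. Without the mouse term, Scaf4 did not pass in wt (0.0585) or Ts65Dn (0.0761), nor did Scaf8 (0.398 and 0.279). The summed oligodendrocyte markers ranged from 5443 to 8634 CPM in the HIP libraries and from 1070 to 2287 in the EC libraries. The summed choroid plexus markers ranged from 349 to 7893 CPM in the HIP libraries (5 genes tested) and from 215 to 306 in the EC libraries (4 tested). The part of either cell type in these differences was not tested.

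The effect of genotype was not shown to differ between the regions for any member. The interaction, the HIP fold over the EC fold, was 1.07 for Son (0.978 to 1.17), 0.990 for Scaf4 (0.891 to 1.10), 1.01 for Scaf8 (0.929 to 1.11), 0.966 for Paxbp1 (0.787 to 1.18) and 1.02 for Urb1 (0.892 to 1.17). All had an adjusted p of 0.9998 by edgeR and an unadjusted p of 0.13 or more. Of all genes, 0 (0%) passed the adjusted test by edgeR and 0 by DESeq2, 37 passed in edgeR without a filter on low counts, and 4.1% (742 genes) had an unadjusted p under 0.05 in edgeR. Over the 5 members the intervals reached from 0.787 to 1.18. Without the mouse labelled Ts65Dn replicate 3 the smallest adjusted p among the members was 0.821 by edgeR.

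**Figure D5:**
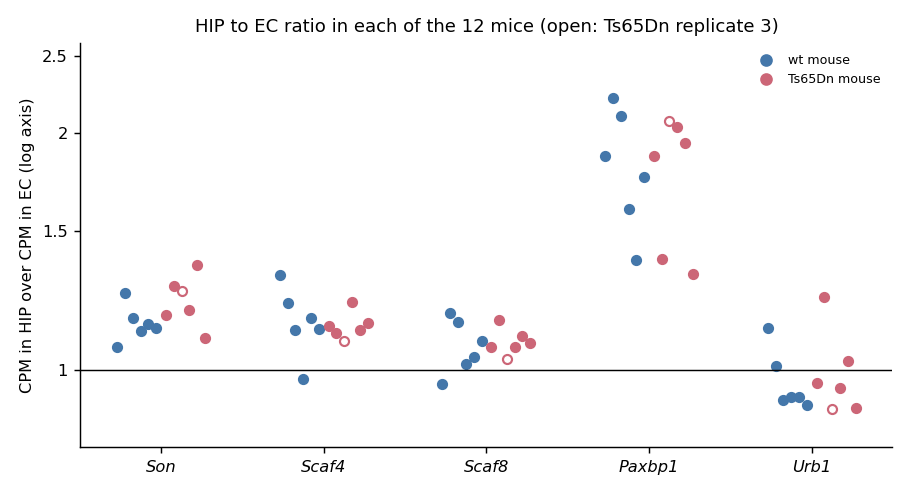
CPM in the HIP over CPM in the EC (log axis) for each member in each of the 12 mice, wt in blue and Ts65Dn in red, the mouse labelled Ts65Dn replicate 3 as an open circle. Paxbp1 lies between 1.32 and 2.21 in every mouse, Son lies above 1 in every mouse, and Urb1 falls on both sides of 1.

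The genes that work with the members were looked at as lists. Of 113 partner genes, none on the triplicated segments, 2 of 111 tested were called in the HIP, where 1.04% of all genes were called, and 1 of 110 in the EC, where 2.5% were. In the list of 30 nuclear speckle and SR protein genes, the partners of SON, 0 were called in either region by edgeR. Of the 30, 8 (HIP, 7 of them lower in Ts65Dn) and 5 (EC, 3 lower) had an unadjusted p under 0.05. Of all genes 14.8% (HIP) and 19% (EC) did, and the list was not tested against them. Its median log2 fold change was −0.06 (HIP) and −0.03 (EC), beside 0.0047 and 0.0046 over all genes. The 2 nearest to a call were Srsf7, an SR splicing factor, at −0.19 in the HIP (adjusted p 0.0553), and Srsf3, another SR factor, at −0.29 in the EC (adjusted p 0.117). Without the library labelled Ts65Dn replicate 3, Srsf7 was called in the HIP (−0.21, adjusted p 0.0369), where 1.82% of all genes were called, and in the EC, where 2.79% were, 0 of the 30 were called.

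Of 28 genes of the polymerase C-terminal domain and the 3′ end machinery, where SCAF4 and SCAF8 act, 0 were called in either region by edgeR. Of the 28, 9 (HIP, 5 of them lower) and 6 (EC, 3 lower) had an unadjusted p under 0.05, beside 14.8% and 19% of all genes. The list medians were −0.02 and −0.01 on the log2 scale. Cpsf6, a subunit of cleavage factor I, was at −0.22 in the HIP (adjusted p 0.0677 by edgeR), and was called at −0.24 without the library labelled Ts65Dn replicate 3 (0.0273). Rprd1a, which binds the same polymerase domain, was at −0.16 (0.08). Of 32 ribosome assembly genes, the setting of URB1, 1 was called in each region by edgeR. Of the 32, 6 (HIP, 5 of them lower) and 8 (EC, 3 lower) had an unadjusted p under 0.05, beside 14.8% and 19% of all genes. The medians of this list were −0.02 and −0.004. Npm1, a nucleolar chaperone, fell in the HIP from 113 ± 8.1 to 90.1 ± 2.4 CPM (log2 fold change −0.32, adjusted p 0.00779 by edgeR). Its libraries lay at 99.4 to 123 CPM for wt and 86.7 to 92.9 for Ts65Dn. In the EC it was at −0.21 with an adjusted p of 0.0596. The adjusted p were 0.00617 (HIP) and 0.0831 (EC) by edgeR without the library labelled Ts65Dn replicate 3. Npm1 has processed copies elsewhere in the genome with which its reads may be shared, so its count is uncertain. Ddx51, an RNA helicase of the large subunit, rose in the EC from 12.8 ± 0.775 to 15.7 ± 1.35 CPM (0.29, adjusted p 0.0482 by edgeR) and was at 0.05 in the HIP (0.699). The call of Ddx51 was lost without any of 11 of the 12 mice and held only without the library labelled Ts65Dn replicate 3 (0.0263), with adjusted p up to 0.1 in the others.

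Of 10 PAXBP1 partners tested, 0 were called in either region by edgeR, with 1 and 0 at an unadjusted p under 0.05. The smallest adjusted p were those of Dhx15, a helicase that takes spliceosomes apart (−0.12 in the HIP, 0.253), and Rbbp5, a subunit of H3K4 methyltransferase complexes (−0.08 in the EC, 0.395). Pax3 and Pax7 were below the count filter in both regions. Of 11 genes known to be mis-spliced or lowered when SON is lacking, 11 (HIP) and 10 (EC) were tested, and Pck2, a mitochondrial gluconeogenic enzyme gene, rose in the HIP from 29.0 ± 1.7 to 36.8 ± 3.8 CPM (0.34, adjusted p 0.0352 by edgeR). In the EC Pck2 was at 0.25 (adjusted p 0.124). Its call in the HIP was lost without any mouse other than Ts65Dn replicates 2 and 3 (adjusted p up to 0.0888). In each region 3 genes of this list had an unadjusted p under 0.05 (1 of them lower in the HIP), beside 14.8% (HIP) and 19% (EC) of all genes. The list medians were 0.09 (HIP) and 0.11 (EC) on the log2 scale. These lists count transcripts only, and neither splicing nor polyadenylation site use can be read from counts per gene.

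The members also varied together from library to library, and with other triplicated genes. With each group centred on its own mean, log2 CPM over the 24 libraries gave Pearson correlations between pairs of members from 0.564 (Scaf4 with Paxbp1) to 0.917 (Son with Scaf8). Among the genes most like Son were Scaf8 (r = 0.917) and Brwd1 (0.909). Those most like Scaf8 were App, the amyloid precursor gene (0.933), Son, and Dop1b (0.917). Scaf4 was most like Ifnar1 (0.845), Serac1 (0.842) and Synj1 (0.836), Paxbp1 was most like Yeats2 (0.843), Usp16 (0.802) and Luc7l3 (0.786), and Urb1 was most like Dop1b (0.816), Tulp4 (0.793) and Zbtb21 (0.787). Brwd1, App, Ifnar1, Serac1, Synj1, Usp16, Tulp4 and Zbtb21 are also on the list of triplicated genes. The likeness is thus not particular to the members. These correlations rest in large part on the 2 libraries labelled Ts65Dn replicate 3, which were the farthest from the median for Son, Scaf4 and Scaf8. Without these 2 libraries, Son with Scaf8 was at 0.728, Scaf8 with App at 0.63 and Scaf4 with Ifnar1 at 0.53. For Paxbp1 the 2 farthest were the EC libraries labelled Ts65Dn replicates 3 and 6, and without them Paxbp1 with Yeats2 was at 0.705. For Urb1 they were Ts65Dn replicate 3 of the HIP and replicate 6 of the EC, and without them Urb1 with Dop1b was at 0.701. The 24 points share 12 mice and are a description, without a test.

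Markers of other cells were compared alongside. Of 11 lists of region and cell type markers, the microglial gene P2ry12 was called lower in Ts65Dn in both regions and the striatal gene Drd2 higher in the EC, and 0 markers of the other lists were called. The summed microglial markers ranged from 228 to 261 CPM in the wt HIP and from 209 to 252 in the Ts65Dn HIP, and from 241 to 319 and 231 to 282 in the EC, with 0 of the 4 genes at 0. The summed striatal markers ranged from 101 to 127 CPM in the wt EC and from 88.8 to 160 in the Ts65Dn EC. Their part in the members' values was not tested.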

How the data were processed

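RNA was measured in 24 libraries, the HIP and EC of 12 mice. The authors aligned 50-base single-end reads with Hisat2 to GRCm38 (Ensembl release 99) and deposited raw counts per gene from HTSeq-count. Versions, strand and multi-mapping settings are not given in the sources used here. Labels name a stranded mRNA kit, whereas the methods give a total RNA kit, also stranded, with rRNA depletion, and call the molecules polyA RNA. Deposited tables of the authors' own DESeq2 and FCROS comparisons (mean normalized counts, fold changes, p-values) were not used.

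Identifiers were matched to GENCODE vM21 (99.6% of 55385). Groups and replicate numbers came from the labels, and the mouse of a library was inferred from its genotype and replicate number. Nothing says that same-numbered wt and Ts65Dn mice were paired. In each region edgeR 4.0.16 (R 4.3.3) fitted its quasi-likelihood model to 6 against 6 libraries, with filterByExpr and TMM, and p-values were adjusted by Benjamini-Hochberg over all genes tested. The same fit with an offset of log 1.5 tested folds against 1.5. Regions and the interaction were fitted on 24 libraries with a term for each mouse. Ratios and levels relative to the other triplicated genes were tested by two-sided exact permutation over samples. Likeness was computed on log2 CPM (prior count 2). The tests were tested on simulated data.

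The named genes are the members, from each partner list every gene called in either region (up to 4), or the 2 with the smallest adjusted p where none was called, the genes that overlap or adjoin a member, and the 3 genes most like each member, of which 1 is not reported here. Members and lists were chosen with earlier results of these data known. Alternatives were DESeq2 1.42.0, DESeq2 size factors, TMM without chromosomes 16 and 17, no filter (at least 1 count in total), at least 10 counts in every sample, a replicate block, and leaving out each mouse. Levels relative to the segment were also taken against its median. The removal of GC content and length and the fits on 11 libraries were added after seeing the data.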

Additional observations from a re-analysis of the deposited data

Results flagged for a closer look

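In each group of 6 libraries, the lowest and the highest value of each member were compared with the rest of the group by Dixon's test at the 95% level, which chance alone passes in about 1 of 20 groups. Of 20 groups, 4 held a library that stood apart, and it was the library labelled Ts65Dn replicate 3 in all 4. In the Ts65Dn HIP it was low for Son, at 344 CPM against 421 in the next library, for Scaf8, at 58.2 CPM against 85.1, and for Paxbp1, at 23.1 CPM against 27.9. In the Ts65Dn EC it was low for Scaf8, at 52.2 CPM against 73.0 in the next library. These are the same libraries whose triplicated genes lay at the wt level, and the reason was not tested.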

How the results depend on the processing

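The folds of Ts65Dn over wt of the 5 members kept their direction under every alternative run. The number of members called in the HIP (5) was 1 with the replicate block and 2 with GC content and length removed, and in the EC (3) it was 5 with DESeq2 and 0 with the replicate block. Leaving out 1 mouse gave 2 to 5 (HIP) and 1 to 5 (EC). Members below 1.5-fold stayed at 1 (HIP) or ranged from 1 to 2 (EC) without 1 mouse. Partner genes called in the HIP (2) were 7 with DESeq2, 1 with the replicate block and 1 with GC content and length removed, and 1 to 4 without 1 mouse. In the EC (1) they were 4 with DESeq2, 2 with at least 10 counts in every sample, and 0 without a filter, with the replicate block or with GC content and length removed, and 0 to 1 without 1 mouse. Members differing between HIP and EC in Ts65Dn (4) were 2 without the mouse term, called no replicate block, and 3 to 4 without 1 mouse. In wt (3) they were 2 without the mouse term, and 3 to 4 without 1 mouse. The causes were not tested.

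Same-numbered wt and Ts65Dn mice share only a number. Their deviations from the group means correlated at −0.224 to 0.162 (HIP, 3 of 6 over 0.1) and −0.104 to 0.166 (EC, 1 of 6), and the replicate block called 29 (HIP) and 36 (EC) genes, against 181 and 426. Without the library labelled Ts65Dn replicate 3, the block called 5 (HIP) and 4 (EC) of 5 members, Paxbp1 of the EC being at an adjusted p of 0.163 in edgeR, and all 5 were called in both regions with GC content and length removed.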
